A study of Mus musculus with 10 samples.

Results

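Fos, Fosb, Jun, Junb, Egr1, Ier2, Ier3, Atf3 and Dusp1, a set of immediate early genes that includes core subunits of the transcription factor AP-1, were followed in mouse skin. The genes were fixed by name, and every probe set carrying exactly 1 platform gene symbol from that set was taken. This gave 10 probe sets for 9 genes, of 45037 probe sets and 18193 genes with a probe set of 1 symbol. Jun had 2 probe sets and each other gene had 1. The arrays came from C3H/HeJ recipients of skin grafts from alopecic C3H/HeJ donors, a model in which the graft transfers alopecia areata (AA) to the recipient. From the time of grafting, 5 mice received baricitinib systemically by osmotic pump and 5 received the same pump with vehicle. Skin biopsies were taken at week 12 in both groups, and each mouse gave 1 array. All recipients carried a graft, no ungrafted skin was part of the comparison, and the labels gave neither age nor sex. Baricitinib inhibits the Janus kinases JAK1 and JAK2.

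Immediate early genes are transcribed within minutes of a stimulus, without the need for new protein. Growth factors, cytokines, wounding and cell stress reach them through the MAP kinases ERK, JNK and p38, through serum response factor with its ETS partners, and through CREB. FOS proteins pair with JUN proteins to form AP-1, which in skin takes part in keratinocyte differentiation and wound repair. EGR1 is a zinc finger transcription factor of the same early wave. DUSP1 is a phosphatase that switches MAP kinases off again, and ATF3 is a stress-induced bZIP factor that often represses. Messenger RNAs of these genes turn over quickly, and their levels are known to respond to the way a tissue is cut, held and frozen.

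In these data no member probe set differed between baricitinib and vehicle beyond the spread between mice. Of the 10 probe sets, 8 were higher and 2 were lower in baricitinib treated skin, where 44.6% of all probe sets were higher. Of the members 0 passed an adjusted p of 0.05 (limma, Benjamini-Hochberg over 45037 probe sets, adjusted p between 0.405 and 0.719). At an unadjusted p under 0.05 the members also gave 0, against 14.8% of all probe sets. The values of the groups overlapped for every member, whereas they did not overlap for 5.12% of all probe sets. With vehicle replicate 5 left out, 7 were higher and 3 lower, against 45.1% of all probe sets higher, and again 0 members passed an unadjusted p under 0.05 (27.9% of all probe sets) or had groups that did not overlap (8.53%). No probe set on the array passed the adjusted threshold (0% called, smallest adjusted p = 0.221). The 95% interval of the difference was narrow for Egr1, at -0.18 to 0.40 log2, and wide for Ier3, at -0.40 to 3.38 log2.

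Quality measures of the arrays differed between the groups and are given before the values. Vehicle replicate 5 correlated with the other arrays at r between 0.697 and 0.729, with a median r of 0.705. The median r of each other array was between 0.959 and 0.981. The highest r of any pair, 0.994, joined baricitinib replicate 5 and vehicle replicate 4, so each of them was most like an array of the other group. Vehicle replicate 5 was the lowest of all 10 arrays for 6 member probe sets and the highest for 1, so each difference is also given without it. The 3'/5' gap, the mean log2 difference between the 3' and 5' control probe sets of Gapdh and beta-actin that widens with degraded or shortened RNA, was 1.06 ± 0.08 in baricitinib treated mice and 2.89 ± 1.40 in vehicle mice (SD, n = 5 each, exact permutation p = 0.0317, two-sided). By array the gap was 0.99 to 1.18 in the baricitinib group. It was 3.03, 1.998, 4.35, 1.01 and 4.06 on vehicle replicates 1 to 5, so that only vehicle replicate 4 had a gap like that of the baricitinib arrays. Without vehicle replicate 5 the vehicle gap was 2.60 ± 1.43 (SD, n = 4, exact permutation p = 0.0635). Spiked control transcripts were at 11.32 ± 0.09 log2 in the baricitinib group and 11.98 ± 0.76 log2 in the vehicle group (SD, n = 5 each, exact permutation p = 0.0238, two-sided). That difference of -0.66 was -0.34 without vehicle replicate 5 (exact permutation p = 0.0476). The study's methods removed 1 vehicle array after quality control, which the labels do not name. The tissue was skin by its markers, with Krt5, the keratin of basal keratinocytes, at 13.07 ± 0.05 in baricitinib treated mice and 13.37 ± 0.27 log2 in vehicle mice (SD, n = 5 each). These are levels of a whole piece of skin, in which fewer cells of a type and less RNA per cell cannot be told apart.

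The promoters of these genes are shown because the CRE, the site of CREB and ATF factors, is a known element of FOS promoters. RefSeq sequences of mouse build GRCm38.p6 were given for 7 of the 9 genes, and Egr1 and Ier2 were not matched. The 250 bases before each transcription start were searched on both strands. The CRE core TGACG, or its reverse complement CGTCA, was found in 5 of the 7 members, against 17.7% of 32817 promoter windows of the same length. Below, each sequence runs 5′ to 3′ and ends at the base before the start, and capitals mark the core in either orientation or the full CRE.
Fos, chr12:85473751-85473889, plus strand: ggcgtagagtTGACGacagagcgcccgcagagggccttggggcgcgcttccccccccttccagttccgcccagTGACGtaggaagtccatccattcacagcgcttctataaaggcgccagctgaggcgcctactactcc
Fosb, chr7:19310046-19310115, minus strand: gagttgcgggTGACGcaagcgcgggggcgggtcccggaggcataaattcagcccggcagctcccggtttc
Dusp1, chr17:26508473-26508673, minus strand: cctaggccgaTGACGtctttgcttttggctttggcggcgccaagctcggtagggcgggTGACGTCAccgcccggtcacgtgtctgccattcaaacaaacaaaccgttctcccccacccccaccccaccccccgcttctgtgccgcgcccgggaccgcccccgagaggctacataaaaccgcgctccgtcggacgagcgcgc
Junb, chr8:84978749-84978864, minus strand: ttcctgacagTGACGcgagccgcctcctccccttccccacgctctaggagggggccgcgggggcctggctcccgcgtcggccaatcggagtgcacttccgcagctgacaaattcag
Atf3, chr1:191183334-191183403, minus strand: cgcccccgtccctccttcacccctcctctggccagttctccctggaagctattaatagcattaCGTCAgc

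The core nearest the start lay 66 bases before it in Fos and 60 bases before it in Fosb, the pair of FOS family genes. In Junb it lay 106 bases and in Atf3 7 bases before the start. Dusp1 was the only member with the full CRE, TGACGTCA, whose first base lay 143 bases before the start and which holds 2 overlapping cores, one on each strand. The full CRE was in 1.55% of all windows. The AP-1 site TGANTCA was in 0 of the 7 member windows and in 6.75% of all windows, and the STAT site TTCNNNGAA was in 0 of the 7 and in 7.01%. The CArG box of serum response factor was in 0 of the 7 windows and in 1.47% of all windows. The GC box GGGCGG was in 6 of the 7 and in 32.7% of all windows, the CCAAT box in 3 of the 7 and in 33.8%, and the TATA box TATAAA in 1 of the 7, that of Fos, and in 12.4%. A match describes letters in this window and not a bound site, and a motif farther from the start was not searched.

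Of the FOS genes, Fos and Fosb encode the subunits that need a JUN partner to bind DNA. Fos (probe set 1423100_at, chromosome 12) was at 11.81, 11.61, 12.88, 12.59 and 11.97 log2 on baricitinib replicates 1 to 5, against 11.98, 11.54, 11.19, 11.53 and 12.53 log2 on vehicle replicates 1 to 5. Baricitinib replicates 3 and 4 were high, and so was vehicle replicate 5, while vehicle replicate 3 was the lowest of all arrays. The means were 12.17 ± 0.54 in baricitinib treated mice and 11.75 ± 0.52 log2 in vehicle mice (SD, n = 5 each). The difference was 0.42 ± 0.32 (SE, log2, 95% interval -0.29 to 1.13, a fold of 1.34), with an adjusted p of 0.481 by limma. Without vehicle replicate 5 the vehicle mean was 11.56 ± 0.33 and the difference 0.61 ± 0.28, with an unadjusted p of 0.0513 and an adjusted p of 0.181 in the limma fit. This was the smallest p among the members in that comparison.

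Fosb (1422134_at, chromosome 7) spread more widely. It was at 6.99, 6.26, 8.94, 7.67 and 8.09 log2 in baricitinib treated skin, against 7.65, 7.50, 6.51, 5.62 and 6.69 log2 in vehicle skin. Baricitinib replicates 3, 4 and 5 lay above every vehicle array, whereas baricitinib replicate 2 lay below 4 of the 5. The difference was 0.80 ± 0.53 (SE, log2, 95% interval -0.39 to 1.98, limma adjusted p = 0.449), and 0.77 ± 0.57 without vehicle replicate 5 (limma adjusted p = 0.392). Baricitinib replicate 3, the highest array for both FOS genes, also had the highest summed level of the skeletal muscle markers, 16.17 log2, and the lowest summed level of the hair follicle markers in its group, 12.60 log2. The part of tissue makeup in the FOS values was not tested.

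**Figure D1:**
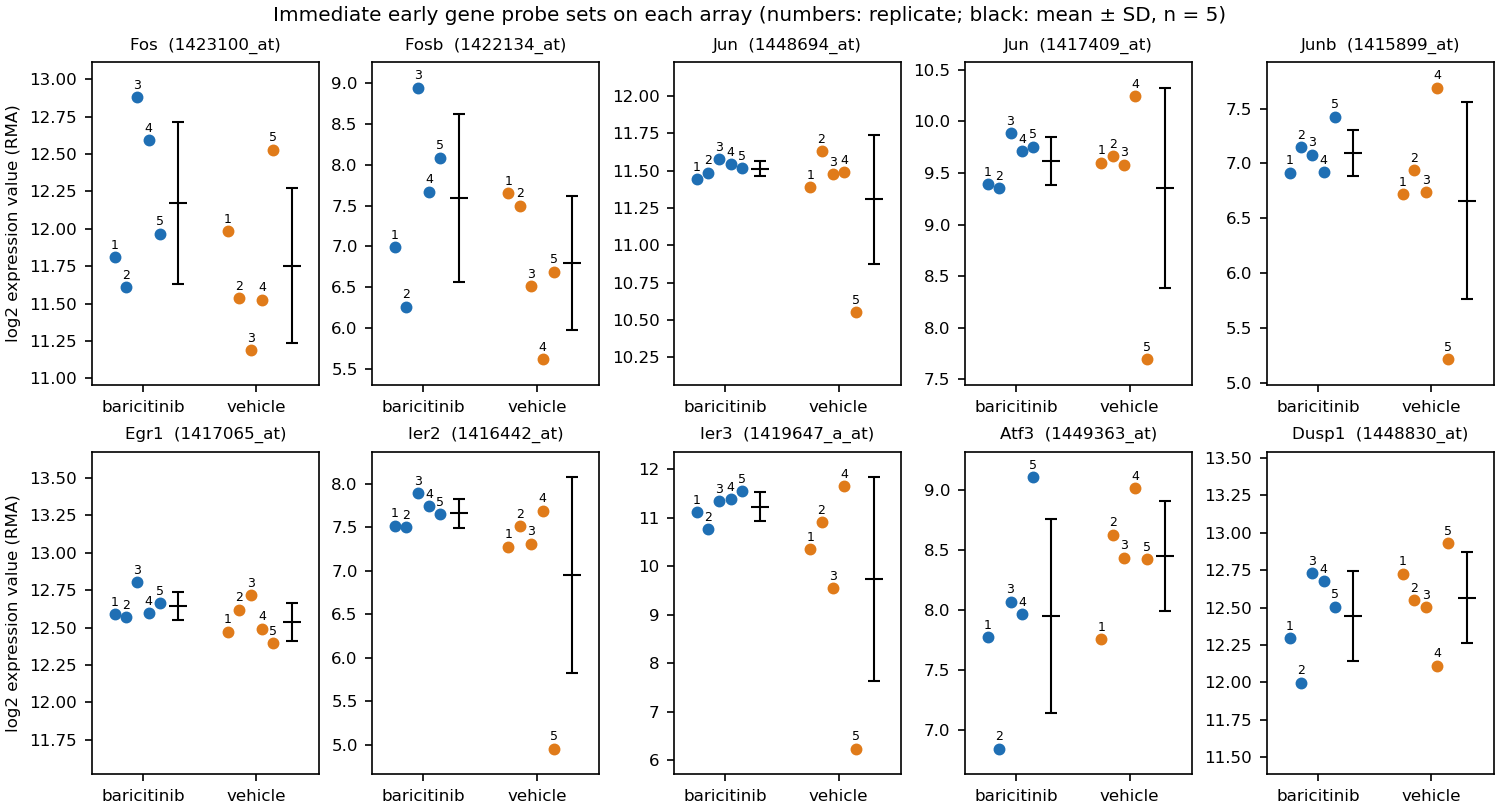
Log2 expression value of each of the 10 probe sets on every array. Points are mice, numbered by replicate, with baricitinib (blue) left of vehicle (orange), and the black bars give the mean ± SD over 5 mice. Each panel has its own axis of log2 values that does not start at 0. The groups overlap in every panel, and vehicle replicate 5 lies far below the other arrays for both Jun probe sets, Junb, Ier2 and Ier3.

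Jun and Junb encode JUN partners of AP-1, of which JUN is the stronger activator in many settings. The brighter Jun probe set (1448694_at, chromosome 4) was at 11.44, 11.49, 11.58, 11.54 and 11.52 log2 in baricitinib treated skin, against 11.39, 11.63, 11.48, 11.49 and 10.55 log2 in vehicle skin. Apart from vehicle replicate 5 these 9 arrays lay within a narrow band, 0.13 log2 wide in the baricitinib group and 0.24 wide in the vehicle group. The difference was 0.21 ± 0.21 (SE, log2, 95% interval -0.25 to 0.66, limma adjusted p = 0.559) with all arrays. On the 9 other arrays it was 0.017 ± 0.09, with a 95% interval of -0.19 to 0.22 and an adjusted p of 0.914 by limma.

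The other Jun probe set (1417409_at) was at 9.39, 9.35, 9.88, 9.71 and 9.75 log2 on the baricitinib arrays, against 9.60, 9.66, 9.58, 10.24 and 7.69 log2 on the vehicle arrays. Its difference was 0.26 ± 0.41 with all arrays (limma adjusted p = 0.706) and -0.15 ± 0.18 when vehicle replicate 5 was left out (limma adjusted p = 0.578). Over the 9 other arrays both Jun probe sets correlated with r = 0.27, so they did not rank the mice alike. The highest array was vehicle replicate 2 for the brighter one and vehicle replicate 4 for the dimmer one.

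Junb (1415899_at, chromosome 8) was at 6.92, 7.14, 7.08, 6.92 and 7.42 log2 in baricitinib treated skin, against 6.72, 6.93, 6.74, 7.69 and 5.21 log2 in vehicle skin. Vehicle replicate 4 was the highest array and vehicle replicate 5 the lowest, with the baricitinib arrays between them. The difference was 0.44 ± 0.38 (SE, log2, 95% interval -0.42 to 1.29, limma adjusted p = 0.518). It was 0.08 ± 0.21 without vehicle replicate 5 (limma adjusted p = 0.828).

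Egr1 (1417065_at, chromosome 18) varied little. It was at 12.59, 12.57, 12.80, 12.60 and 12.66 log2 in baricitinib treated skin, against 12.47, 12.62, 12.71, 12.49 and 12.39 log2 in vehicle skin. Its means were 12.64 ± 0.10 and 12.54 ± 0.13 log2 in baricitinib treated and vehicle mice (SD, n = 5 each). The difference was 0.11 ± 0.13 (SE, log2, limma adjusted p = 0.630), and its 95% interval of -0.18 to 0.40 leaves room for a small change in either direction. Over the 9 other arrays it was 0.07 ± 0.10 (limma adjusted p = 0.659).

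Ier2 and Ier3 are small early response genes. IER2 is a nuclear protein induced with the FOS and JUN genes, and IER3 is a stress-inducible protein linked to cell survival and to ERK signalling. Ier2 (1416442_at, chromosome 8) was at 7.52, 7.50, 7.89, 7.74 and 7.65 log2 in baricitinib treated skin, against 7.28, 7.52, 7.31, 7.69 and 4.95 log2 in vehicle skin. Vehicle replicate 5 stood 2.49 log2 below the mean of the other vehicle arrays. The difference was 0.71 ± 0.47 with it (SE, log2, 95% interval -0.33 to 1.75, limma adjusted p = 0.442), and 0.21 ± 0.13 without it (95% interval -0.08 to 0.50, limma adjusted p = 0.299).

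Ier3 (1419647_a_at, chromosome 17) had the largest difference of the members and the widest spread among vehicle mice. It was at 11.11, 10.76, 11.34, 11.38 and 11.55 log2 in baricitinib treated skin, against 10.35, 10.90, 9.55, 11.64 and 6.24 log2 in vehicle skin. The baricitinib arrays lay within 0.78 log2 of each other, whereas the vehicle arrays other than replicate 5 spread over 2.09 log2 and included the highest value of all, on replicate 4. The means were 11.23 ± 0.30 in baricitinib treated mice and 9.74 ± 2.10 log2 in vehicle mice (SD, n = 5 each). The difference was 1.49 ± 0.85 (SE, log2, 95% interval -0.40 to 3.38, limma unadjusted p = 0.110 and adjusted p = 0.405). Without vehicle replicate 5 it was 0.62 ± 0.37 (95% interval -0.20 to 1.44, limma adjusted p = 0.289). The vehicle arrays with the widest 3'/5' gaps, replicates 1, 3 and 5, were the 3 lowest of all arrays for Ier3, and vehicle replicate 4, with its narrow gap, was the highest. With the gap as a covariate the difference of Ier3 was -0.60, and those of both Jun probe sets, Junb, Ier2 and Dusp1 also changed sign. Those of Fos (0.56), Fosb (1.01), Egr1 (0.12) and Atf3 (-0.86) kept their sign, and no member passed the adjusted threshold in that fit. The gap itself differed between the groups, so the fit separates gap and treatment poorly. The part of RNA quality in the member values was not tested.

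Atf3 and Dusp1 were the members on the lower side. Atf3 (1449363_at, chromosome 1) was at 7.77, 6.84, 8.07, 7.96 and 9.11 log2 in baricitinib treated skin, against 7.75, 8.63, 8.43, 9.01 and 8.42 log2 in vehicle skin. Baricitinib replicate 2 was the lowest and baricitinib replicate 5 the highest of all arrays, so the treated group spanned the whole range of the vehicle group. The means were 7.95 ± 0.81 in baricitinib treated mice and 8.45 ± 0.46 log2 in vehicle mice (SD, n = 5 each). The difference was -0.50 ± 0.39 (SE, log2, 95% interval -1.36 to 0.36, limma adjusted p = 0.486). It was -0.51 without vehicle replicate 5, an array that lay close to the others for this gene. The difference kept its direction when each array was left out in turn, as did that of every other member probe set except the dimmer Jun probe set. Baricitinib replicate 5 was also the treated array with the highest summed level of T cell markers, 13.12 log2, against 10.22 to 11.85 log2 on the other baricitinib arrays. The vehicle arrays had 13.24 to 13.73 log2 on replicates 1 to 4 and 10.56 log2 on replicate 5. The part of T cells in the Atf3 values was not tested.

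Dusp1 (1448830_at, chromosome 17) was at 12.29, 12.00, 12.73, 12.68 and 12.51 log2 in baricitinib treated skin, against 12.73, 12.55, 12.50, 12.11 and 12.93 log2 in vehicle skin. Low arrays were found in both groups, baricitinib replicate 2 and vehicle replicate 4. The difference was -0.12 ± 0.20 (SE, log2, 95% interval -0.58 to 0.33, limma adjusted p = 0.719), and -0.03 ± 0.18 without vehicle replicate 5 (limma adjusted p = 0.919).

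**Figure D2:**
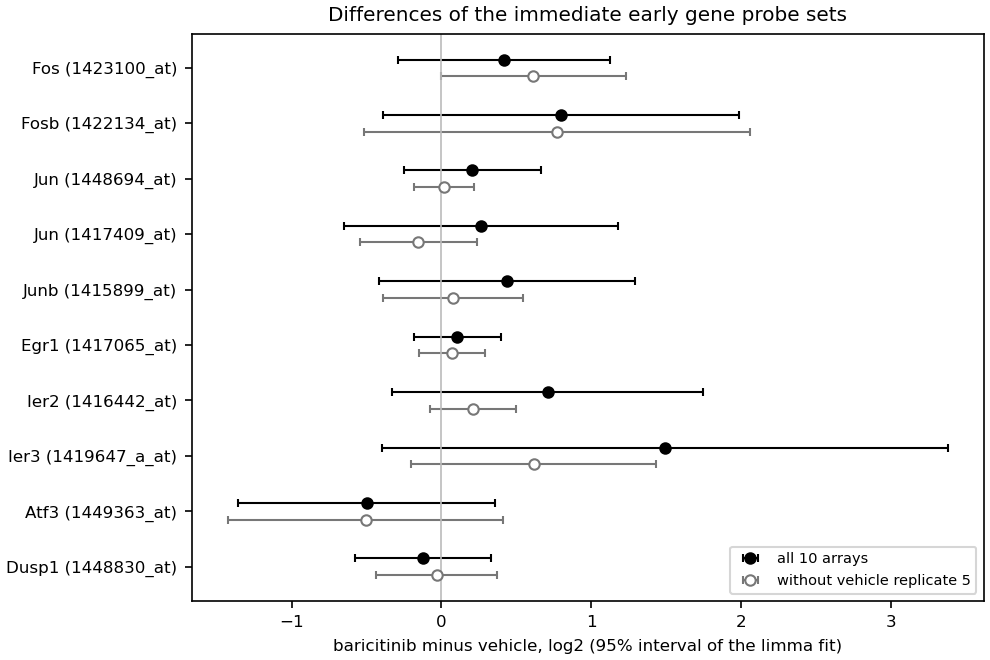
Difference between baricitinib and vehicle, in log2 units with the 95% interval of the limma fit, for each member probe set. Filled points use all 10 arrays and open points leave out vehicle replicate 5. Every interval with all arrays crosses 0, and the difference of Ier3 is 1.49 with all arrays and 0.62 without vehicle replicate 5.

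Over the members, taking the brightest probe set of each gene, the median difference was 0.42 log2 with all arrays and 0.08 log2 without vehicle replicate 5. The median over all genes was 0.0051 and -0.061 log2 in the same comparisons. With all arrays 7 of the 9 genes were higher in baricitinib treated skin, against 50.3% of all genes, and without vehicle replicate 5 again 7 of the 9, against 42.8%. All 10 probe sets reached a level of 5 log2 on at least 3 arrays. These counts describe a set of named genes and carry no test.

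The spread between mice of 1 group was itself unlike from probe set to probe set. Within the baricitinib group, the range over 5 mice was 2.68 log2 for Fosb and 2.26 log2 for Atf3. Fos spanned 1.27 log2, Ier3 0.78 and Dusp1 0.73, while Egr1 spanned 0.23 and the brighter Jun probe set 0.13. The 2 Jun probe sets, at 0.13 and 0.53 log2 in the same mice, show that such a range belongs to the probe set as well as to the gene, so the ranges give no order of the genes.

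The mice that were high for one FOS gene tended to be high for the other and for Dusp1. Over the 9 arrays other than vehicle replicate 5, Fos and Fosb correlated with r = 0.78, and r = 0.73 after each group's mean was taken out. Fosb and Dusp1 correlated with r = 0.81, and 0.92 after removal of the group means, and Fos and Dusp1 with r = 0.57 and 0.76. Ier2 correlated with Ier3 (r = 0.82) and also with Fos (r = 0.70), and Ier3 correlated with Junb (r = 0.72) and Fos (r = 0.51), while Junb and Dusp1 ran opposite ways (r = -0.53). Over all 10 arrays vehicle replicate 5 set many of these values, with r = 0.98 for Jun and Ier2 against 0.59 without it. These are descriptions over few mice that share RNA quality and tissue makeup, and no test was made of them.

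Baricitinib replicate 3 was the highest of the 9 arrays for 5 of the 9 genes, Fos, Fosb, Egr1, Ier2 and Dusp1. Vehicle replicate 4 was the highest for Junb and Ier3, baricitinib replicate 5 for Atf3 and vehicle replicate 2 for Jun. The lowest was vehicle replicate 1 for 4 genes. The mean of the members, each centred on its own mean, was -0.01, -0.26, 0.53, 0.29 and 0.44 log2 on baricitinib replicates 1 to 5, against -0.02, 0.14, -0.23, 0.08 and -0.96 log2 on vehicle replicates 1 to 5. Treated mice were thus found at both ends of the range of the 9 arrays, with replicates 3 and 5 at the top and replicate 2 at the bottom.

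**Figure D3:**
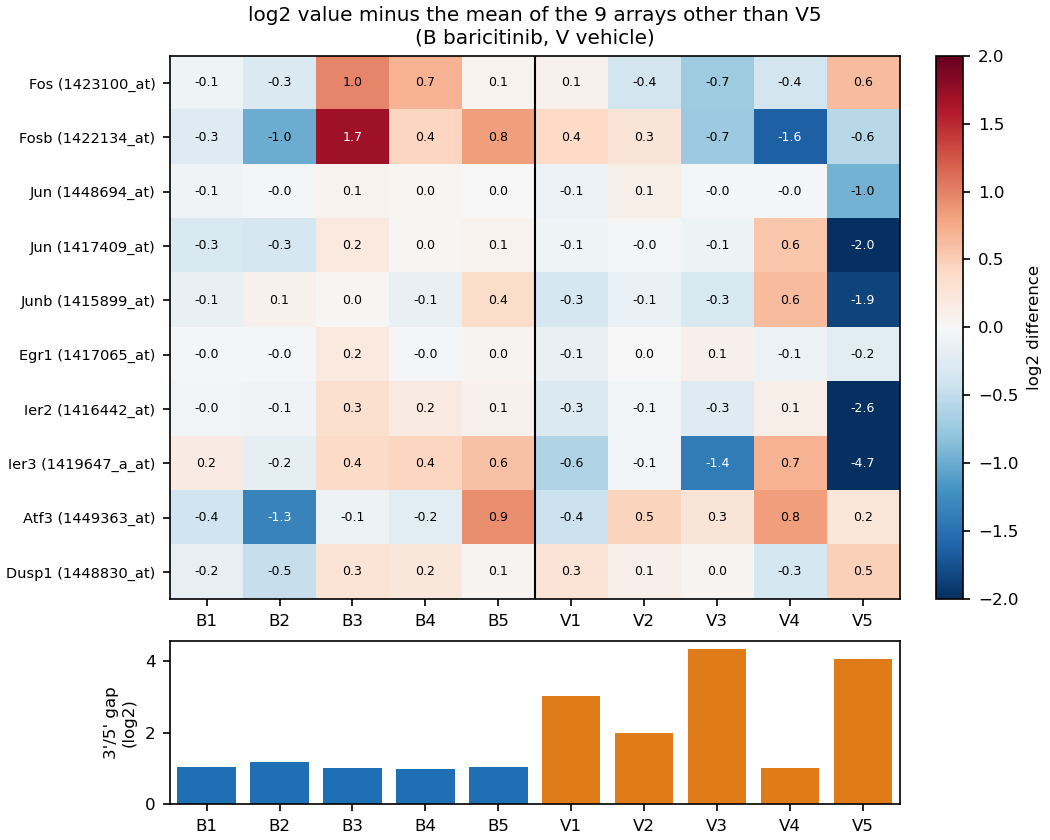
Upper panel, log2 value of each member probe set minus its mean over the 9 arrays other than vehicle replicate 5, with baricitinib (B) left of vehicle (V) and the value printed in each cell. The colour scale ends at 2 log2 units in either direction. Lower panel, 3'/5' gap of each array in log2 units. Fos and Fosb are highest on B3, Atf3 on B5, and the gap is 0.99 to 1.18 on the baricitinib arrays and 1.01 on V4.

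The genes whose pattern was most like the mean of the members over the 9 arrays were Comp (r = 0.958), Ifi27 (0.948), Anxa6 (0.947), Hoxc4 (0.939), Hmces (0.938), Zbtb46 (0.938), Kdelr1 (0.935) and Fancg (0.933), out of 12234 genes with a mean of at least 6 log2. Over all 10 arrays their r was between 0.764 for Zbtb46 and 0.978 for Ifi27. For Fos alone the closest were Dhrs4 (r = 0.976), Tbc1d4 (0.976) and Galnt16 (0.960), with r = 0.169, 0.535 and 0.907 in the same order once vehicle replicate 5 was included. For Atf3 they were Parp8 (0.989), Myo1g (0.979) and H2-DMa (0.978), with r = 0.276, 0.612 and 0.338 over all 10 arrays. These genes were chosen for their high r, which therefore carries no test.

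Among the other AP-1 family genes and bZIP partners, 15 of 16 listed genes were measured, and none passed the adjusted threshold. They had 8 higher and 7 lower in baricitinib treated skin, or 5 higher and 10 lower without vehicle replicate 5, and a median difference of 0.04 log2 (-0.07 without vehicle replicate 5). At an unadjusted p under 0.05 they gave 1 higher and 1 lower, against 9.81% higher and 6.22% lower of all genes by their brightest probe set. Atf5, a bZIP factor of the stress response, was at 9.71 in baricitinib treated mice and 8.24 log2 in vehicle mice, a difference of 1.47 ± 0.61 (SE, limma adjusted p = 0.314), and of 0.90 without vehicle replicate 5. Mafg, a small MAF protein that pairs with larger bZIP factors, differed by -0.54 (limma adjusted p = 0.319). Its other probe set, 1434054_at, differed by 0.79. Batf2, a bZIP factor induced by interferon, was at 6.19 ± 1.56 and 7.67 ± 1.20 log2 in baricitinib treated and vehicle mice (SD, n = 5 each), a difference of -1.48 (limma adjusted p = 0.386). Baricitinib replicate 5, at 8.78 log2, was the treated array highest for Batf2 as it was for Atf3.

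The remaining FOS and JUN genes are given for completeness, chosen after their values were seen. Fosl1 (FRA-1) was at 4.45, 4.81, 3.60, 3.28 and 6.42 log2 in baricitinib treated skin, against 6.25, 6.20, 6.25, 5.84 and 2.50 log2 in vehicle skin. Vehicle replicate 5 was the lowest of all, and without it the vehicle arrays lay above 4 of the 5 baricitinib arrays. The difference was -0.89 with all arrays (limma adjusted p = 0.531) and -1.62 without vehicle replicate 5 (limma adjusted p = 0.110), whereas a dimmer Fosl1 probe set differed by -0.01. Fosl2 differed by 0.19 (limma adjusted p = 0.508), or by 0.07 without vehicle replicate 5. Its other probe set, 1422931_at, differed by -0.35, or by -0.64 without that array. Jund differed by -0.11 (limma adjusted p = 0.619).

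The other immediate early genes, 37 measured of 38 listed, included more that separated the groups. Of these, 24 were higher and 13 lower in baricitinib treated skin, with a median difference of 0.36 log2 (0.21 without vehicle replicate 5). None passed the adjusted threshold, and at an unadjusted p under 0.05 there were 9 higher and 5 lower, against 9.81% higher and 6.22% lower of all genes. The groups did not overlap for 8 of the 37, 5 higher and 3 lower, against 3.8% higher and 1.82% lower of all genes. Without vehicle replicate 5 they did not overlap for 5 higher and 5 lower, against 8.53% of all probe sets in either direction. At an unadjusted p under 0.05 that comparison gave 10 higher and 8 lower, against 27.9% of all probe sets in either direction. Sik1, a salt-inducible kinase transcribed through CREB, was at 8.79, 8.11, 9.09, 8.89 and 8.24 log2 in baricitinib treated skin, against 7.01, 7.42, 6.53, 8.07 and 7.44 log2 in vehicle skin. All baricitinib arrays lay above all vehicle arrays, and the difference was 1.33 ± 0.30 (SE, limma adjusted p = 0.221). Its other probe set differed by 1.47 in the same direction.

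Ptgs2, the inducible cyclooxygenase of prostaglandin synthesis, ran the opposite way. It was at 8.30, 7.77, 8.07, 7.66 and 8.37 log2 in baricitinib treated skin, against 8.81, 9.18, 9.43, 9.32 and 9.96 log2 in vehicle skin. All baricitinib arrays lay below all vehicle arrays, and the difference was -1.31 ± 0.24 (SE, limma adjusted p = 0.221, and -1.15 without vehicle replicate 5). Gadd45g, a growth arrest and stress gene, was at 9.90 ± 0.22 and 8.58 ± 0.74 log2 in baricitinib treated and vehicle mice (SD, n = 5 each), a difference of 1.33 ± 0.33 (SE, limma adjusted p = 0.224) with 1 vehicle array, replicate 4, inside the baricitinib range. With all arrays, the other genes whose groups did not overlap, named after their values were seen, were Nr4a1 (difference 1.30), Rhob (1.54), Hbegf (1.37) and Errfi1 (0.72) on the higher side. Ier5l (-0.87) and Nfkbiz (-0.56) were those on the lower side. For Nfkbiz the other probe sets differed by 0.32 and 0.26, for Ier5l by 0.01 and for Hbegf by 0.09, so that those differences hold for 1 probe set each. Leaving out vehicle replicate 5 gave 0.94 for Rhob and 0.53 for Hbegf.

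**Figure D4:**
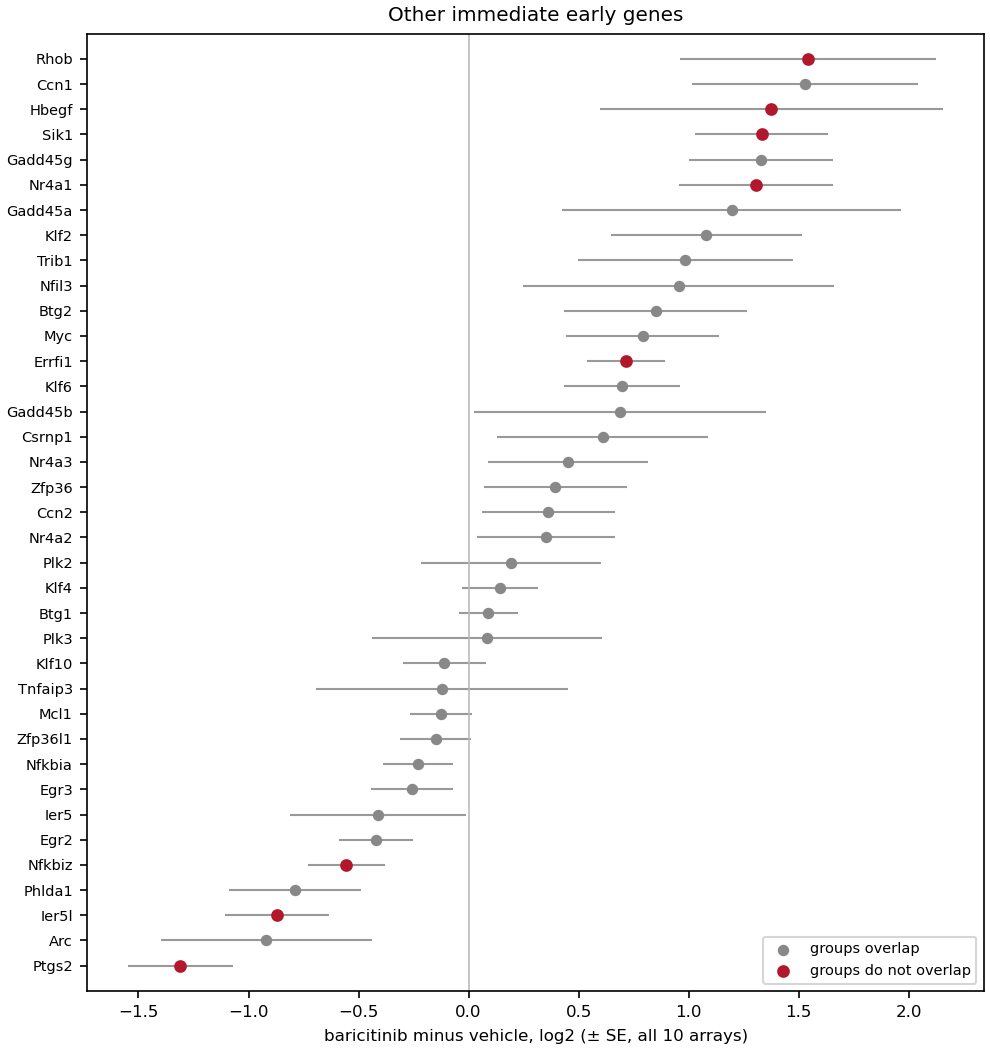
Difference between baricitinib and vehicle in log2 units (± SE of the limma fit, all 10 arrays, brightest probe set) for the 37 other immediate early genes measured. Red points are the 8 genes whose groups do not overlap and grey points are the rest. Differences run from -1.31 for Ptgs2 to 1.54 for Rhob, and no gene passed the adjusted threshold.

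Upstream of these genes, 19 of 23 listed MAP kinase, serum response factor and ETS genes were measured, 12 higher and 7 lower. Their median difference was 0.14 log2. Without vehicle replicate 5 there were 9 higher and 10 lower, with a median of -0.03 log2. None passed the adjusted threshold. Map2k4, a kinase that activates JNK, was at 10.47 in baricitinib treated mice and 11.12 log2 in vehicle mice with no overlap (difference -0.65, limma adjusted p = 0.230), but its other probe set differed by 0.90. Mapk14, the p38 alpha kinase, differed by 0.47 (limma adjusted p = 0.318), and Mapkapk2, a kinase that p38 activates, by 1.07 (limma adjusted p = 0.322), or 0.69 without vehicle replicate 5.

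The MAP kinase phosphatases other than Dusp1, with the ERK inhibitors of the Sprouty and SPRED families, were all 16 measured, 9 higher and 7 lower, with a median of 0.09 log2 (-0.08 without vehicle replicate 5). Dusp5, a nuclear phosphatase of ERK, was at 11.27, 11.27, 10.52, 10.64 and 10.85 log2 in baricitinib treated skin, against 9.27, 9.92, 8.35, 10.67 and 7.74 log2 in vehicle skin. Only vehicle replicate 4 reached into the baricitinib range. The difference was 1.72 ± 0.50 (SE, limma adjusted p = 0.231), and 1.35 without vehicle replicate 5 (limma adjusted p = 0.093). Dusp7 differed by 1.21 (limma adjusted p = 0.400), by 0.52 without vehicle replicate 5 and by -0.24 on its dimmest probe set. Spry1 differed by 0.63 (limma adjusted p = 0.334), and by 0.41 without vehicle replicate 5. The list counted 7 higher and 9 lower without that array.

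The early cytokine response genes, which STAT3 among other factors controls, had 5 higher and 9 lower of 14 measured and a median of -0.37 log2 (-0.49 without vehicle replicate 5). Socs3, a feedback inhibitor of JAK signalling, was at 8.70, 8.31, 9.14, 9.23 and 9.61 log2 in baricitinib treated skin, against 10.25, 9.95, 10.93, 9.75 and 10.51 log2 in vehicle skin. The groups did not overlap and the difference was -1.28 ± 0.29 (SE, limma adjusted p = 0.221). A second Socs3 probe set, 1456212_x_at, differed by -1.32 and another, 1416576_at, by 0.43. Osmr, the oncostatin M receptor, differed by -0.77 (limma adjusted p = 0.253). It differed by -0.92 on a second probe set, 1459217_at, and by 1.22 on the dimmest, 1418675_at. Il6 differed by -0.48 at a level near 3 log2 (limma adjusted p = 0.355).

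Genes that respond to handling of the animal or the tissue were set beside the members. Of 16 heat shock and protein stress genes measured, 11 were higher and 5 lower in baricitinib treated skin, with a median of 0.33 log2 (0.15 without vehicle replicate 5). Their summed level was 15.58 to 15.69 log2 in baricitinib treated skin. It was 15.50 to 15.61 log2 on vehicle replicates 1 to 4 and 14.94 log2 on replicate 5. Hspb8, a small heat shock protein, differed by 1.29 without overlap (limma adjusted p = 0.252), Hsph1 by 0.64 (adjusted p = 0.279) and Ddit3 by 0.90 (adjusted p = 0.296). The inducible Hsp70 genes Hspa1a and Hspa1b, looked up after the list was counted, differed by -0.70 and -0.13. The dimmer Hspa1b probe sets, 1427127_x_at and 1427126_at, differed by 0.32 and 0.58, or by -0.03 and -0.06 without vehicle replicate 5.

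Of 13 hypoxia response genes, 5 were higher and 8 lower (median -0.19 log2, and -0.36 without vehicle replicate 5). Car9, a carbonic anhydrase that hypoxia induces, differed by -2.39 (limma adjusted p = 0.227), Slc2a1, a glucose transporter, by -0.60 (adjusted p = 0.265) and Ddit4 by 1.30 (adjusted p = 0.229).

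The glucocorticoid response genes, of which 10 of 10 were measured, had 8 higher and 2 lower and a median of 0.73 log2 (0.66 without vehicle replicate 5). At an unadjusted p under 0.05 they gave 5 higher and 0 lower, against 9.81% and 6.22% of all genes. The groups did not overlap for 4, all higher, against 3.8% of all genes. Tsc22d3, which encodes GILZ, was at 11.38, 10.75, 12.12, 11.86 and 11.12 log2 in baricitinib treated skin, against 9.96, 10.02, 10.03, 10.31 and 9.83 log2 in vehicle skin (difference 1.42 ± 0.26, SE, limma adjusted p = 0.221). Sult1a1 differed by 2.13 (adjusted p = 0.221) and Errfi1 by 0.72 (adjusted p = 0.224). Errfi1 is on both this list and that of the other immediate early genes, and is counted in each. The summed level of this group was highest on baricitinib replicates 3 and 4, at 15.45 log2 each, the arrays that were also highest for Fos. On the other baricitinib arrays it was 14.94 to 15.07 log2, and in vehicle skin 14.69 to 14.96 log2. Vehicle replicate 5, the next highest array for Fos at 12.53 log2, had a summed level of 14.75 log2. Whether the time or manner of sampling moved with the groups is not given in the labels, and the part of handling in the member values was not tested.

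Markers of the cells that a skin biopsy can hold were read on the same arrays. Skeletal muscle markers, 9 of 9 measured with 7 higher, had a summed level of 15.11 to 16.17 log2 in baricitinib treated mice and 14.82 to 15.51 log2 in vehicle mice. Baricitinib replicates 3 and 4 were highest for these too, at 16.17 and 16.07 log2. Smooth muscle markers, 5 of 5 measured and all higher, ran from 12.62 to 13.60 log2 in baricitinib treated mice and from 11.57 to 13.12 log2 in vehicle mice. Endothelial markers, 6 of 6 measured and all higher, had a median difference of 0.93 log2 and a summed level of 10.12 to 11.50 log2 in baricitinib treated mice and 9.75 to 10.16 log2 in vehicle mice. Adipocyte markers, 5 of 7 measured and all higher, had a median of 1.63 log2. T cell and cytotoxic markers had 1 higher and 9 lower of 10 measured, with a median of -0.94 log2 (-1.43 without vehicle replicate 5). Hair follicle markers had 9 higher and 1 lower of 10, with a median of 0.46 log2 that became -0.46 without vehicle replicate 5. Keratinocyte markers had 4 higher and 4 lower of 8 measured, with a median of -0.04 log2 (3 higher and 5 lower, and -0.29, without vehicle replicate 5). Macrophage markers had 5 higher and 4 lower of 9 (median 0.21 log2, and -0.10 without vehicle replicate 5), neutrophil markers 3 and 3 of 6 (0.08 and -0.47). Mast cell markers had 5 higher and 1 lower of 6 (median 1.42 log2), and fibroblast markers 6 higher and 1 lower of 7 (0.37 log2). RMA values have no zero, so no marker can be called absent from them. None of the genes of these marker lists passed the adjusted threshold, and their part in the levels of the immediate early genes was not tested.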

How the data were processed

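Skin RNA of 10 mice (5 baricitinib, 5 vehicle) came from flash frozen biopsies. After NuGen amplification and biotin labelling it was read on Affymetrix GeneChip arrays for the mouse genome. The deposited log2 values per probe set were made by the authors with RMA, run on this experiment separately. RMA evens out the distributions of the arrays, which can turn a weak array into gene-by-gene shifts. The deposited values still differed in spread. Their SD over probe sets was 2.28 log2 on vehicle replicate 5 and 2.71 to 2.79 log2 on the other arrays. The RMA version is not given in the sources used here. Depth has no meaning for arrays, and the number of mice limits the precision.

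From these values, 64 control probe sets of 45101 were set aside and 45037 were compared with limma 3.58.1 in R 4.3.3 (lmFit and eBayes, two-sided, no covariate, Benjamini-Hochberg adjustment over all of them, threshold 0.05). Differences are baricitinib minus vehicle. In the platform annotation 34945 probe sets had 1 symbol, 932 several and 9160 none. Where a gene of a list had several probe sets, the brightest on average was used. A summed level is the log2 of the sum of linear values over a list. Group means of the quality measures were compared by an exact permutation test over 252 assignments (scipy 1.17.1). The 19 lists held 232 genes, of which 220 were measured. From each pathway or handling list the 3 genes with the smallest p were named, from each cell type list the 2 brightest were eligible, and 8 genes were named by likeness. Members, lists and rules were chosen with earlier results of these data known.

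Groups and replicate numbers came from the sample titles. No array held the values of another (0 identical pairs). The calculation was tested on simulated data. Alternatives were each array left out, replicate number as a block, a filter on dim probe sets, quantile and median normalization, array weights, trended robust variance, the 3'/5' gap as a covariate, and the mean of a gene's probe sets. Chromosomes and promoter sequences came from RefSeq for GRCm38.p6.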

Additional observations from a re-analysis of the deposited data

Results flagged for a closer look

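Within groups of 5 arrays, 116 groups were examined for 1 array far from the other 4, and 11 were flagged, 9 of them at vehicle replicate 5. Chance flags about 1 in 20 groups. Among the members these were vehicle replicate 5 of Jun, at 10.55 log2 (1448694_at) and 7.69 log2 (1417409_at), and of Ier2 at 4.95 log2. The values of Junb (5.21 log2) and Ier3 (6.24 log2) on that array were also the lowest, without being flagged. Among the other genes examined, vehicle replicate 5 was far below the other vehicle arrays for Spry1 (7.47 log2), Krt25 (7.64), Tchh (9.38), Nkg7 (6.58), S100a9 (7.78) and Des (5.98). The remaining pair were baricitinib arrays, replicate 1 for Krt5 at 13.16 log2 and replicate 5 for Fabp4 at 12.79 log2.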

How the results depend on the processing

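Of 200 alternative values of the 10 member differences, 183 kept their direction and their side of the threshold, 16 reversed and 1 passed the threshold. The replicate block, the filter on dim probe sets and the trended robust variance cannot change a member difference. In those alternatives only the adjusted p could move, so their kept directions carry no information. The count of probe sets past the threshold was 0 with all arrays. It ranged from 0 to 848 with each array left out, was 12 without baricitinib replicate 5 and 848 without vehicle replicate 4, 9676 with array weights, and, in alternatives chosen after seeing the data, 11278 without vehicle replicates 4 and 5 and 1551 without replicate 5 of both groups. The count of members past it was 1 without vehicle replicates 4 and 5 (Ier3, 0.96, limma adjusted p = 0.0449) and 0 otherwise. Vehicle replicate 4, with a 3'/5' gap of 1.01, was the only vehicle array near the baricitinib range of 0.99 to 1.18. In each fit without it all remaining vehicle arrays had wider gaps than all baricitinib arrays. Gap and treatment therefore cannot be told apart in the counts of 848 and 11278 or in that Ier3 value. The median over the members, 0.42 log2, was 0.076 to 0.48 with each array left out (lowest without vehicle replicate 5), 0.13 with array weights, -0.087 with the 3'/5' gap as a covariate, 0.017 with that covariate and without vehicle replicate 5, and 0.065 without replicate 5 of both groups. Reversed with array weights were Jun 1448694_at (-0.025) and Jun 1417409_at (-0.13). With the 3'/5' gap as a covariate, Jun 1448694_at was -0.087, Jun 1417409_at -0.57, Junb -0.43, Ier2 -0.15, Ier3 -0.60 and Dusp1 0.14. With the gap and without vehicle replicate 5 they were -0.022, -0.44, -0.33 and -0.35 for both Jun probe sets, Junb and Ier3, and 0.12 for Dusp1. Without vehicle replicate 5 Jun 1417409_at was -0.15, and without replicate 5 of both groups it was -0.19 and Junb -0.0059. The cause was not tested. The 3'/5' gap differed by -2.30 to -1.47 with each array left out (lowest when vehicle replicate 4 was missing, at an exact permutation p of 0.0159). That p was 0.0635 when baricitinib replicates 3 or 4, or a vehicle replicate other than 4, was the one missing. Same-numbered arrays did not deviate together (r between -0.23 and 0.09). With the number as a replicate block 0 probe sets passed. The median over the members was 0.42, which this balanced block cannot change.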
